A study of Homo sapiens with 15 samples.

Results

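The H3K4me3 chromatin loops of LNCaP cells were compared between 16 h of dihydrotestosterone (DHT) and vehicle. The compared members are the 278491 anchor pairs of the H3K4me3 loop set, out of 505995 different anchor pairs in the whole series, each taken once with its contact at 16 h and at 0 m. The comparison uses 2 of the 15 samples, 1 HiChIP library on each side. All samples of the series are LNCaP, a human prostate carcinoma line that needs androgen to grow. Cells of every group were kept for 3 days in phenol red free medium with charcoal-stripped serum, which is poor in steroids. The 16 h group then received 10 nM DHT, the most potent natural androgen, and the 0 m group its ethanol vehicle. H3K4me3 was also measured at 30 m, 4 h and 72 h of DHT, and H3K27ac at the same times. These libraries are used below to describe the same loops. The other H3K4me3 times also set alternative read pair minimums and classes of contact.

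HiChIP joins DNA ends that lie close together in fixed nuclei and then pulls down fragments that carry a chosen histone mark. H3K4me3 marks the starts of active genes, so that its HiChIP reads mainly contacts in which at least 1 anchor is a promoter. DHT acts through enhancers in the nucleus, and luminal prostate cells are known to induce the kallikrein genes and TMPRSS2 with androgen. The contact of a HiChIP loop depends on the proximity of its anchors and on the amount of the mark they carry, and with these libraries the 2 cannot be told apart.

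A deposited contact is a scaled number of read pairs, and 1 read pair was worth 0.282 of contact at 0 m and 0.193 at 16 h. The loop set held 1820771 read pairs at 0 m and 2909403 at 16 h, with a median of 3 and 4 per loop, and 12.9% and 5.17% of loops had none. The intervals in brackets are 95% intervals from the read pairs and cover counting error only, and no test between the conditions was possible with 1 library a side. The cell type was read from the promoters of 8 prostate luminal genes, all of which had loops, with a summed contact of 12.4 to 128 at 0 m and 34.6 to 251 at 16 h. Of 11 genes of other cell types with a coding start in the annotation 5 had any loop, COL1A1 (11 loops), SYP (4) and CD3E, ALB and CHGA (1 each). PTPRC, KRT5, KRT14, TP63 and GFAP were among those with none. COL1A1 had the most contact of the 5, 12.7 at 0 m and 13.0 at 16 h. At 0 m it thus lay slightly above KLK2, the lowest luminal gene at 12.4.

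Among promoters with at least 200 read pairs at 0 m and 16 h together, the 3 with the highest log2 change in H3K4me3 contact were those of KLK3, TMPRSS2 and KLK2, classical androgen-induced genes that encode secreted or membrane serine proteases. The 250 bases before the annotated starts of KLK3 and KLK2 are shown because these neighbouring genes lead the comparison together. They were read from GRCh37, the build of the loop coordinates, 5′ to 3′ on the strand of the gene. For KLK3, known as prostate-specific antigen, the window is chr19:51357921-51358170 on the plus strand and for KLK2 chr19:51376445-51376694 on the plus strand. Capitals mark, in KLK3, the 15 bases that open with the steroid response half-site AGAACA and, in KLK2, the 15 bases most like them.
KLK3: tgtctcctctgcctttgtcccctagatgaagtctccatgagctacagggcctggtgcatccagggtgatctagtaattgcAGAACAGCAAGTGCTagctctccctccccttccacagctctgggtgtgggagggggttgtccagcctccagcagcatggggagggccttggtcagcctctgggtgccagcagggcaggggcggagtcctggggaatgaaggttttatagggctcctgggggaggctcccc
KLK2: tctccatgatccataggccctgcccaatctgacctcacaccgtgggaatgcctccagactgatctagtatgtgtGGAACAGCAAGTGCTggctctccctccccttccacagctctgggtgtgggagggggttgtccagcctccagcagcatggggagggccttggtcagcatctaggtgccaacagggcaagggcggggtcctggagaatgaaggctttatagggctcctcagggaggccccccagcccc
The half-site AGAACA, searched on both strands, was found once in the KLK3 window, at base -170 from the start, and not in that of KLK2. In the KLK2 window the 15 bases from -176 to -162 differed from those of KLK3 by 1 substitution, A1G, counted from 1 at the first capital. Of all 19856 coding starts 8.94% held the half-site within the same distance, so a match is a description of these letters and not of binding.

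Summed over the loops of its promoter, KLK3 had 140 read pairs at 0 m and 638 at 16 h, a contact of 39.5 and 123. The log2 change was 1.64 (95% interval 1.38 to 1.92), a 3.12-fold higher contact, and the highest of all 9217 coding promoters with at least 200 read pairs in both libraries together. TMPRSS2, a membrane serine protease, followed with 291 and 1300 read pairs, a contact of 82.1 and 251 and a log2 change of 1.61 (1.43 to 1.80). At KLK2, the nearest relative of KLK3, the contact was 12.4 at 0 m and 34.6 at 16 h, from 44 and 179 read pairs, with a log2 change of 1.48 (0.997 to 1.99). All 3 intervals lie far above the median log2 change of 0.12 of the tested promoters.

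At a fold of 1.5 in summed contact, 2.09% of the 9217 tested promoters were higher at 16 h (193) and 0.141% lower (13). The minimum of 200 read pairs includes the 16 h library, which lets in promoters that are high there. With the same minimum on the 30 m, 4 h and 72 h libraries instead, 347 of 11009 promoters were higher and 33 lower, and KLK3, TMPRSS2 and KLK2 ranked 2, 3 and 4 behind SNAI2, whose change of 1.71 rests on 23 and 110 read pairs. With both libraries scaled to equal totals, which lowers every log2 change by 0.13, the counts were 57 and 52. Of 35 genes on a list of known androgen-induced genes 33 had loops and 29 reached 200 read pairs, and 16 of these 29 were higher by this fold and none lower. The minimum on the other times also gave 16 of 29, and equal totals gave 12 of 29. The median log2 change of the 29 was 0.63, and 26 of them lay above the median of all tested promoters. Pooled over the 990 loops of the list, 5305 read pairs at 0 m and 12282 at 16 h gave a log2 change of 0.67 (0.62 to 0.71), and 0.54 without KLK3, KLK2 and TMPRSS2. The list was drawn up from general knowledge of androgen-induced genes, with earlier results of these data known, and is not independent evidence of its direction.

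**Figure D1:**
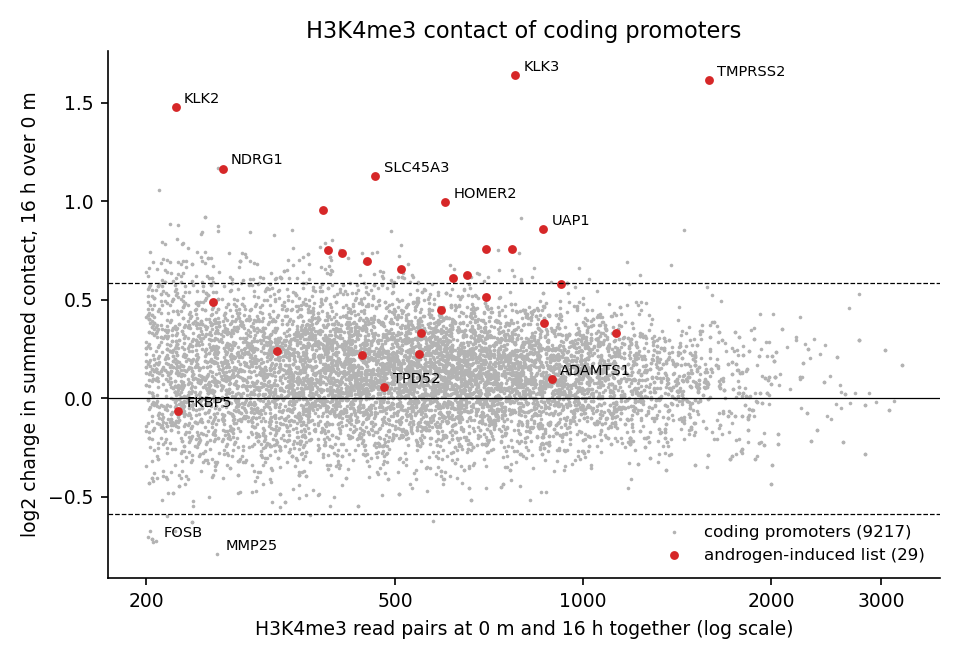
Each point is a coding promoter, with the H3K4me3 read pairs of its loops at 0 m and 16 h together on the x axis (log scale) and the log2 change in summed contact on the y axis, where dashed lines mark a fold of 1.5. KLK3, TMPRSS2 and KLK2 stand above all others plotted, while most of the 9217 promoters lie between the lines, FKBP5 and TPD52 of the androgen-induced list (red) among them.

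Within the list, NDRG1, a stress-responsive gene, followed the 3 leading genes with a log2 change of 1.17 (0.75 to 1.60). SLC45A3, which encodes the prostate membrane protein prostein, had a contact of 31.3 at 0 m and 68.4 at 16 h and a log2 change of 1.13 (0.82 to 1.45), and the scaffold protein gene HOMER2 changed by 0.996 (0.73 to 1.27). Other called genes of the list were ACSL3, which activates long-chain fatty acids, at 0.96 (0.62 to 1.30), UAP1, which makes UDP-N-acetylglucosamine for protein glycosylation, at 0.86 (0.64 to 1.08) and SORD, sorbitol dehydrogenase, at 0.757 (0.518 to 0.9999). KLK4, a kallikrein of the same cluster, had a contact of 62.6 and 106 and changed by 0.76 (0.53 to 0.99). The transcription factor gene MAF (0.75), the nucleotide exporter ABCC4 (0.74), the kinase CAMKK2 (0.70), the ubiquitin ligase HERC3 (0.66), the elongation factor partner EAF2 (0.63) and the GTPase RHOU (0.61) completed the 16. In the EAF2 loops with at least 20 read pairs the promoter anchor also lay in the promoter of IQCB1. The change of EAF2 thus cannot be told apart from that of IQCB1. PMEPA1, an inhibitor of TGF-beta signalling, lay just under the fold at 0.58 (0.38 to 0.79).

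The rest of the list was closer to the mass of promoters. The log2 changes of ABHD2, AZGP1, ELL2, ZBTB10 and CENPN lay between 0.33 and 0.51. The promoter anchor of the CENPN loops with at least 20 read pairs also lay in the promoter of CMC2. Those of B4GALT1, ELK4 and STEAP2 lay between 0.22 and 0.24. FKBP5, a co-chaperone of steroid receptors and among the best known androgen-induced genes, had a contact of 26.5 at 0 m and 25.3 at 16 h, a log2 change of -0.07 (-0.46 to 0.33) from 94 and 131 read pairs, while its H3K27ac contact was 12.9 and 22.3 (0.79). For TPD52 the contact was 53.9 and 56.1, and for ADAMTS1, a secreted metalloprotease, 98.1 and 105. The intervals of these 3 genes and of B4GALT1, ELK4 and STEAP2 include no change.

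The GC content of anchors moved with the change of all promoters. Across the 9217 promoters the log2 change and the GC of the 5 kb anchor bin had r = -0.38 and rho = -0.38, a description of promoters that share both libraries. The median log2 change was 0.22 in the 1694 promoters under 45% GC, 0.16 in the 3004 from 45 to 50%, 0.10 in the 2468 from 50 to 55% and -0.01 in the 2051 from 55%. The medians of the androgen-induced promoters did not fall in this order, but their classes are small. The 1 under 45% GC was at 0.63. Of the 8 with 45 to 50% GC 7 exceeded the median of their GC class, with a median of 0.50. Of the 15 with 50 to 55% GC 14 did, with a median of 0.66. All 5 with at least 55% GC did, TMPRSS2, NDRG1 and SLC45A3 among them, with a median of 1.13. Whether GC moves with DHT or with the preparation of the 2 libraries was not tested.

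The libraries of the other times place the 16 h value. The summed contact of KLK3 was 39.5 with vehicle, 41.3 after 30 m, 53.4 after 4 h, 123 after 16 h and 44.8 after 72 h. That of TMPRSS2 was 82.1, 82.7, 89.9, 251 and 96.2 at the same times, and that of KLK2 12.4, 12.3, 13.9, 34.6 and 12.1. In all 3 genes the 16 h library alone stood apart, and none of the other 4 came near it. SLC45A3 (31.3, 26.98, 35.1, 68.4 and 31.6) and HOMER2 (43.4, 38.9, 38.5, 86.6 and 36.3) had the same order of 16 h above the rest. NDRG1 differed, with 17.5 at 0 m, 39.2 at 16 h and 39.8 at 72 h, as did MAF, whose contact was 31.9 at 0 m, 104 at 4 h and 53.7 at 16 h. Of the 29 androgen-induced promoters 15 (51.7%) were highest at 16 h and 11 at 4 h, while of all 9217 tested promoters 24.1% were highest at 16 h and 59.0% at 4 h. Each time point is 1 library, so a difference between times cannot be told apart from a difference between libraries.

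**Figure D2:**
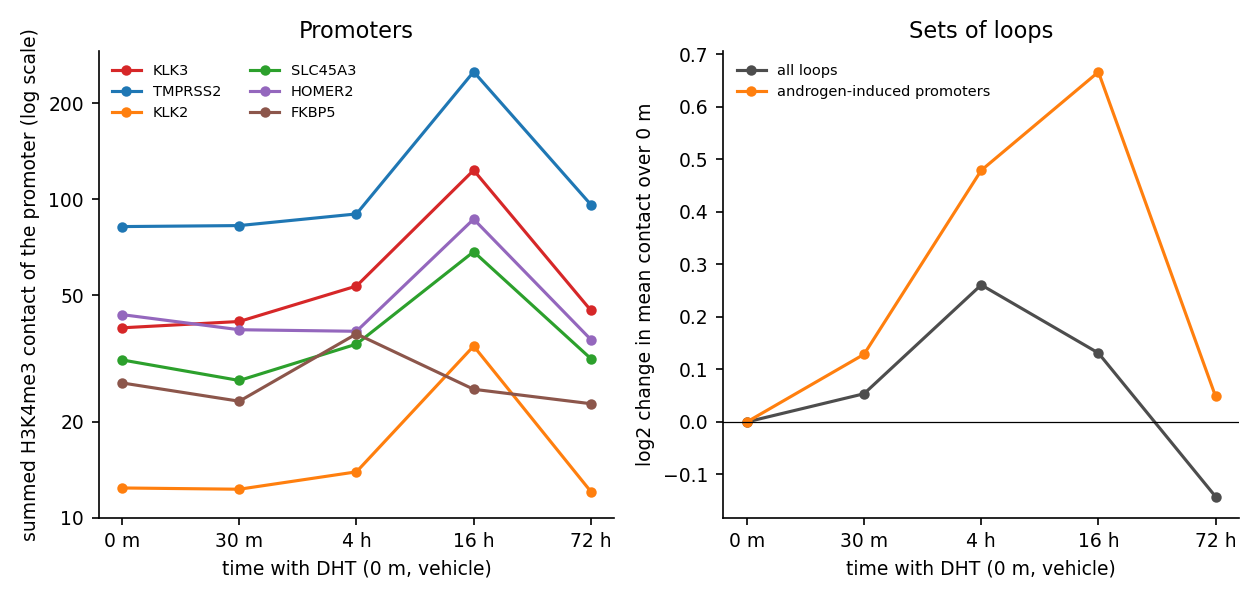
The left panel plots the summed H3K4me3 contact (log scale) of 6 promoters at the 5 time points, 1 library each, and the right panel the log2 change in mean contact over 0 m of 2 sets of loops, all loops and those of the androgen-induced promoters. KLK3, TMPRSS2, KLK2, SLC45A3 and HOMER2 peak at 16 h and are back near vehicle at 72 h, whereas FKBP5 does not peak there.

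Of all 12 loops of the KLK3 promoter 11 had a higher contact at 16 h, 7 of them by a fold of 2, and 1 a lower one. Of the 12, 7 reached 20 read pairs in both libraries together, and 5 of the 7 did so only with the 16 h library, so their direction is partly set by this minimum. With the minimum put on the 30 m, 4 h and 72 h libraries instead, which the comparison does not use, 8 loops remained, 7 of them higher, 5 by a fold of 2. The loop from the promoter anchor (chr19:51357001-51358000) to an intron of KLK3 at chr19:51362001-51363000 went from 41 to 278 read pairs, a contact of 11.6 and 53.7 and a log2 change of 2.22 (1.74 to 2.73). The loop to chr19:51392001-51393000, intergenic beyond KLK2, went from 4 to 41 read pairs (2.81, 1.35 to 4.76). The contact with the KLK4 promoter at chr19:51412001-51413000, over an exon of KLK4, went from 17 to 86 read pairs, a log2 change of 1.79 (1.03 to 2.64). Upstream, the loop with the promoter of KLK15 changed by 1.04 (0.14 to 2.03), and those with intergenic anchors at chr19:51307001-51308000 and chr19:51347001-51348000 by 0.90 (0.18 to 1.68) and 0.69 (-0.16 to 1.60).

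KLK2 shared a distal anchor with KLK3. Of its 6 loops 4 had a higher contact at 16 h and 2 a lower one, and 2 reached 20 read pairs. Its promoter anchor (chr19:51377001-51378000, over an exon) contacted chr19:51392001-51393000 with 9 read pairs at 0 m and 64 at 16 h, a contact of 2.54 and 12.4. This log2 change of 2.29 (1.27 to 3.48) was the highest of the 17068 nuclear loops with at least 50 read pairs, a minimum that it reaches only with the 16 h library. The other of these 2 loops, 5 kb long, to the intergenic anchor chr19:51372001-51373000, changed by 1.24 with 29 and 100 read pairs. Neighbouring loops that share an anchor are not independent of each other. Over the 4 KLK2 loops of at least 20 kb, with 6 and 15 read pairs, the log2 change was 0.78 (-0.67 to 2.43), an interval that includes no change.

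The TMPRSS2 promoter had 49 loops, of which 45 had a higher contact at 16 h, 36 of them by a fold of 2, and 4 a lower one. The 12 loops with at least 20 read pairs in both libraries together were all higher, but 10 of them had fewer than 20 at 0 m. The 14 loops with 20 read pairs over 30 m, 4 h and 72 h were higher as well, 13 of them by a fold of 2, and the 37 loops left out by the first minimum gave a pooled log2 change of 1.15 (0.75 to 1.56). The 5 kb loop within introns of TMPRSS2, chr21:42872001-42873000 to chr21:42877001-42878000, carried most read pairs, 85 at 0 m and 583 at 16 h, with a contact of 24.0 and 113 and a log2 change of 2.23 (1.90 to 2.58). The loop to the intergenic anchor chr21:42892001-42893000 changed by 1.46 (0.78 to 2.18), with 23 and 92 read pairs. Loops of over 100 kb to chr21:43027001-43028000 and to an exon of RIPK4 at chr21:43187001-43188000 changed by 1.26 (0.49 to 2.11) and 1.04 (0.10 to 2.07). Over the 47 TMPRSS2 loops of at least 20 kb the log2 change was 1.23 (0.99 to 1.47).

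The same loops were read in the H3K27ac libraries, which mark active enhancers as well as promoters. The H3K27ac contact of the KLK3 promoter was 112 at 0 m and 117 at 16 h (log2 change 0.06), and that of the TMPRSS2 promoter 97.3 and 99.8 (0.04). That of KLK2 was 65.5 and 119 (0.86). Of the 12 TMPRSS2 loops 8 had a lower H3K27ac contact at 16 h than at 0 m, and of the 7 KLK3 loops 3, in loops chosen by their H3K4me3 read pairs. The median H3K27ac change of the 5422 promoters with 200 read pairs in both marks was 0.31, so KLK3 and TMPRSS2 were above nearly all promoters in one mark and below the median in the other.

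**Figure D3:**
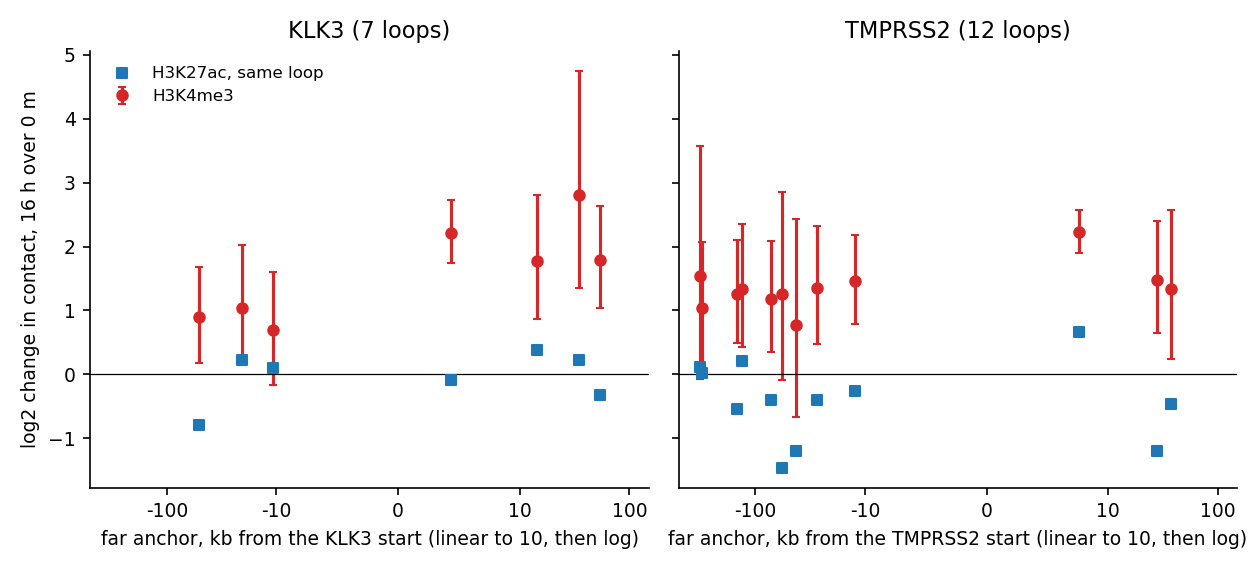
Log2 change in contact, 16 h over 0 m, of the loops of the KLK3 and TMPRSS2 promoters with at least 20 H3K4me3 read pairs, against the distance of the far anchor from the gene start (positive downstream; linear to 10 kb and logarithmic beyond). Red points are H3K4me3 with 95% counting intervals and blue squares the H3K27ac change of the same loop, and the red point is the higher in all 19 loops, a direction that the choice of loops by H3K4me3 read pairs favours, since 15 of them had fewer than 20 at 0 m.

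Over the 5422 promoters the 2 marks' changes were nearly unrelated, with r = 0.07 and rho = 0.06 across promoters that share the cell line and the times. Of the 97 promoters that were higher in H3K4me3 and had enough H3K27ac read pairs, 25 (25.8%) were also higher by a fold of 1.5 in H3K27ac, against 25.9% of all 5422. Of the 1403 that were higher in H3K27ac, 1.78% were higher in H3K4me3, against 1.79% of all 5422. INO80D, which encodes a subunit of the INO80 chromatin remodeller, was high in both, at 17.2 and 38.7 in H3K4me3 (1.17, 0.75 to 1.61) and 30.3 and 141 in H3K27ac (2.22).

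SEMA3C, which encodes a secreted guidance cue, was also among the 10 highest promoters, with a log2 change of 1.06 (0.60 to 1.54). The lowest was MMP25, a membrane-anchored metalloprotease, with a contact of 39.8 at 0 m and 23.003 at 16 h and a log2 change of -0.79 (-1.15 to -0.43). It was followed by TMEM94 (-0.73), FOSB (-0.73), the pair ZNF558 and MBD3L1, which share their loops (-0.71), PAQR4 (-0.70), USP31 (-0.68), CDK11B (-0.67) and the pair CCDC78 and HAGHL, which share theirs (-0.63). CDK11B has a near-identical neighbouring copy, so its read pairs are uncertain. The 13 promoters lower at 16 h had a median anchor GC of 60.3%, the 193 higher ones 46.9% and all tested ones 49.8%.

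The other gene lists are read against the 2.09% of all tested promoters that were higher and the 0.141% that were lower, and a count of 0 in a list of this size is near that background. Of 10 tested luminal transcription factors 2 were called higher, SPDEF with a contact of 64.9 and 108 (0.74, 0.51 to 0.96) and EHF with 117 and 187 (0.68, 0.51 to 0.85). ZBTB16, a zinc finger repressor, was at 0.57 and FOXA1, a pioneer factor of prostate enhancers, at -0.06 (-0.38 to 0.26), while its H3K27ac contact was 214 and 355. Of the luminal markers used above to read the cell type 3 were called, KLK3, KLK2 and TMPRSS2, all on the androgen-induced list too, while the keratins KRT8 and KRT18 were at 0.47 (0.24 to 0.70) and 0.18 (0.02 to 0.36) and the homeobox gene HOXB13 at 0.11 (-0.10 to 0.32). None of 17 nuclear receptor coregulators was called, with log2 changes from -0.32 (ARID1A) to 0.32 (NCOA2).

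Of 26 sterol and fatty acid genes only ACSL3 was called, and the next were IDI1 (0.47) and ELOVL5 (0.42), while LSS, lanosterol synthase, was lowest at -0.30. Of 23 genes of the secretory pathway and unfolded protein response 2 were called, the protein disulfide isomerase PDIA4 (0.88, 0.47 to 1.29) and the membrane-bound transcription factor CREB3L2 (0.74, 0.44 to 1.04). SAT1, which acetylates spermidine and spermine, was the 1 called gene of 8 tested polyamine genes (0.70, 0.32 to 1.08), and AMD1 was next with a contact of 251 and 363 (0.53, 0.41 to 0.65). In the cell cycle list (22 tested), DNA repair list (20) and oxidative phosphorylation list (49) no promoter was called in either direction. RRM2 was the highest cell cycle gene at 0.47 and E2F1 the lowest at -0.31, XRCC5 led the repair genes at 0.58, and NDUFB9 and NDUFV1 were the ends of the respiratory list at 0.45 and -0.42. Of 72 cytosolic ribosomal protein genes 5 were higher, RPL31 (0.67), RPL35A (0.65), RPS6 (0.65) and RPL37 (0.64) leading, with a list median of 0.25. With equal totals none of these 5 reached the fold, and neither did SAT1 or EHF. Of 13 immediate early genes FOSB alone was called, and lower, with a contact of 31.0 and 18.8, while DUSP1 was at 0.42. OPRK1, an opioid receptor gene on a list of genes known to be repressed by androgen, was not called, with a contact of 21.4 and 28.8 and a log2 change of 0.43 (0.02 to 0.84).

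**Figure D4:**
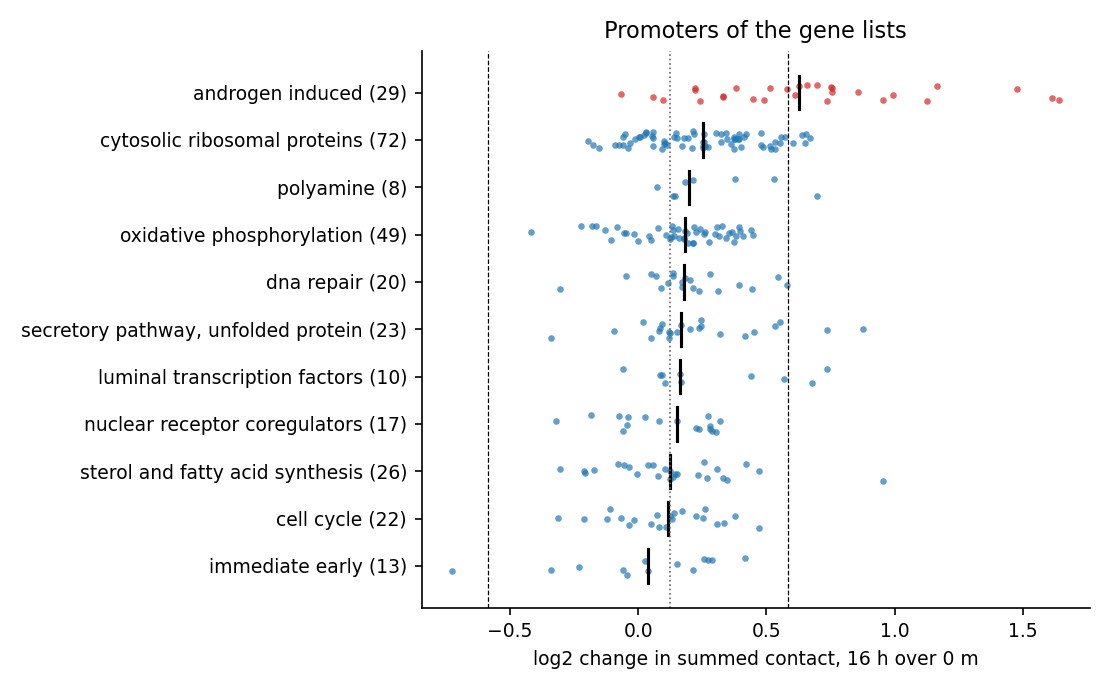
Log2 change in summed H3K4me3 contact, 16 h over 0 m, of each tested promoter (points) in 11 gene lists, with the number tested in brackets, the list median as a black bar, the median of all tested promoters as a dotted line and a fold of 1.5 as dashed lines. The androgen-induced list (red) has a median of 0.63, and the medians of the other lists plotted lie between 0.037 and 0.25. The luminal markers, which share KLK3, KLK2 and TMPRSS2 with the androgen-induced list, are not plotted. Neither is the list of genes known to be repressed by androgen, of which OPRK1 was at 0.43, above the medians of those other lists.

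Over all 278491 loops the summed contact was higher at 16 h by a log2 change of 0.131 (0.129 to 0.134), a mean of 1.84 per loop at 0 m and 2.02 at 16 h. This equals the shift between the deposited scaling and equal totals, under which it was 0. Loops between promoters changed by 0.09 (-0.05 with equal totals), loops of a promoter with another anchor by 0.14 and loops without a promoter by 0.20. With promoters assigned by the 5 kb bin the first 2 classes changed order, at 0.14 and 0.12, and loops without a promoter were at 0.19. These differences exceed the counting intervals, and the median GC of the 3 classes was 50.8%, 45.6% and 44.7%. Within GC classes the order was not constant. The 3 classes changed by 0.27, 0.21 and 0.43 under 40% GC, by 0.23, 0.20 and 0.28 from 40 to 45%, by 0.19, 0.16 and 0.18 from 45 to 50%, by 0.07, 0.09 and 0.09 from 50 to 55% and by -0.07, -0.03 and 0.01 from 55% on. Loops without a promoter were thus highest under 45% and from 55% on. By GC alone the change ran from 0.26 under 40% to -0.04 from 55% on, while the H3K27ac change of the same loops was 0.20 and 0.27 at these ends.

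By length, the loops of 5 to 10 kb changed by 0.25, those of 20 to 50 kb by 0.00 (-0.01 to 0.00) and those of 200 to 500 kb by 0.18. The H3K27ac change of the same classes was 0.75, 0.17 and 0.03, so that the shortest loops gained in both marks and the long ones in H3K4me3 more than in H3K27ac. In classes of mean contact at 30 m, 4 h and 72 h the change was 0.16 under 1, 0.08 from 4 to 8 and 0.18 from 16 on.

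**Figure D5:**
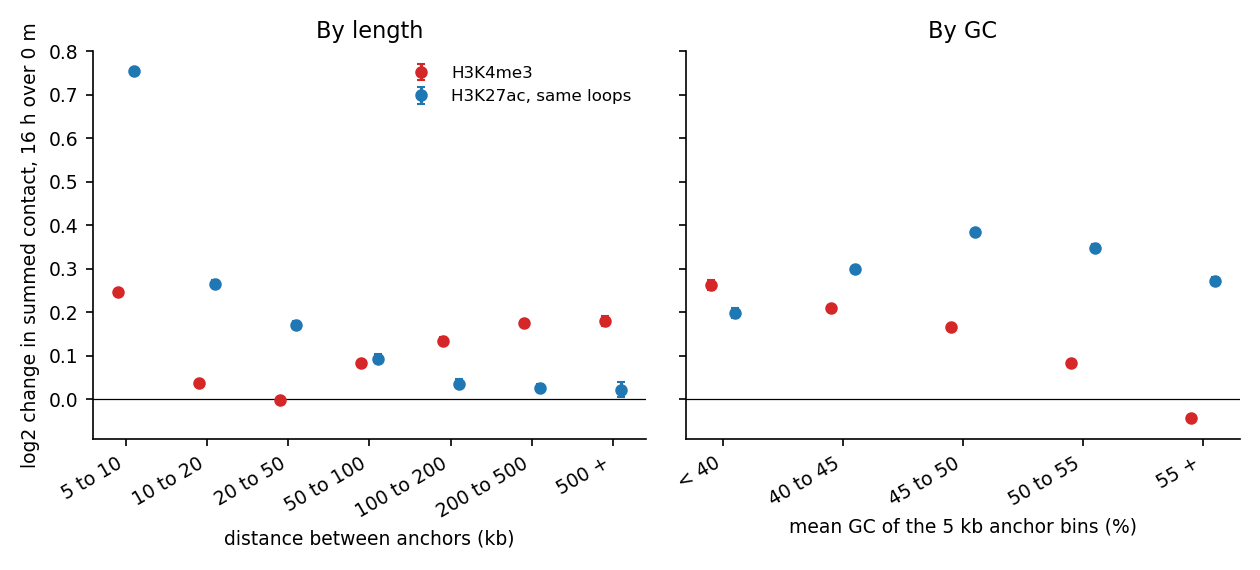
Log2 change in summed contact, 16 h over 0 m, of the H3K4me3 loop set by distance between anchors (left, kb) and by mean GC of the 5 kb anchor bins (right, %), for H3K4me3 (red) and H3K27ac (blue), with 95% counting intervals that are mostly smaller than the points. The H3K4me3 change falls from 0.26 to -0.04 with GC and the H3K27ac change does not.

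Of the 50885 loops with at least 20 read pairs in both libraries together, 6.29% (3202) were higher at 16 h by a fold of 2 and 2.08% (1059) lower, or 2215 and 1666 with equal totals. Loops of androgen-induced promoters with as many read pairs were higher in 75 of 226 (33.2%) and lower in none, and the minimum counts the 16 h library too. The 10 highest loops with at least 50 read pairs had log2 changes of 1.81 to 2.29, and the 10 lowest -1.44 to -1.22. All of the 10 highest were at their maximum at 16 h among the 5 times, and all of the 10 lowest at 0 m, which the choice of extremes favours. Of the 10 highest loops 8 had fewer than 20 read pairs at 0 m and reached the minimum through the 16 h library. A minimum of 50 on the 3 other times was also used, with loops that had no read pair at 0 m left out. The 10 highest loops then had 1 read pair each at 0 m, the fewest that this choice allows, and 15 to 21 at 16 h. Which loops lead thus depends on the minimum.

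After KLK2, TMPRSS2 and KLK3 came the loop of the SLC45A3 promoter (chr1:205647001-205648000) with chr1:205682001-205683000 in an exon of the neighbouring gene NUCKS1, with 7 and 43 read pairs (2.07, 0.91 to 3.47). FEM1C, a substrate receptor of a ubiquitin ligase, contacted an intergenic anchor 110 kb away at chr5:114767001-114768000 with 9 and 53 read pairs (2.01). The 5 kb loop at the kinesin gene KIF12 had 10 and 54 read pairs (1.89), the 5 kb loop at CYRIA, a regulator of Rac1, 8 and 43 (1.88), and the loop of SESN3, a stress-induced sestrin, with an intergenic anchor 110 kb away 8 and 42 (1.85). The promoters of PCBD2 and of the homeobox gene PITX1 contacted each other with 9 and 47 read pairs (1.84), and 2 intergenic anchors nearest to GLYATL1 with 10 and 51 (1.81). In none of these 6 loops beyond SLC45A3 was the H3K27ac contact higher by a fold of 1.5.

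The 10 lowest loops had a median anchor GC of 55.8% against 48.4% in the 10 highest, and the lowest of all, at PPP6C, 45.2%. They ran from the promoters of PPP6C, a protein phosphatase subunit (39 and 21 read pairs, -1.44), FAM89B and ZNRD2 (33 and 18, -1.42), UBE2J2 (51 and 31, -1.26), EFEMP2 (59 and 36, -1.26), CASKIN2 and TSEN54 (45 and 28, -1.23), and between pairs of promoters, ZNF688 with PRR14 (38 and 22, -1.33), TUFM with RABEP2 (53 and 33, -1.23), C20orf204 with TCEA2 (32 and 20, -1.22) and DNASE2 with CALR and FARSA (40 and 25, -1.22). The tenth joined an exon of PRR12 with an intergenic anchor near RRAS (33 and 18, -1.42).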

How the data were processed

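The authors processed the HiChIP reads of LNCaP cells with Trim Galore 0.5.0 and HiC-Pro 3.1.0 (genome hg19), per the labels and the methods, and called each mark's loops in 5 kb bins from its merged times. The deposited contact signal per loop was scaled by the authors with TMM over the 5 times. In every table used, 100% of the values were whole multiples of the smallest non-zero value within 0.01, so read pairs were recovered by division. The labels give H3K27ac 2 replicates per time point and H3K4me3 1, and the tables hold 1 value per loop and time point.

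The H3K4me3 loops were taken as the second run of chromosomes in the table and matched by loop name. A promoter was 2500 bp on either side of the start of the canonical transcript of a coding gene (Gencode 44 lifted to GRCh37), and a loop was assigned where at least 1 bp of a deposited 1 kb anchor overlapped it. Log2 changes compare summed contact at 16 h with 0 m, with exact 95% intervals for a ratio of 2 counts. Called means past a fold of 2 (loops, at least 20 read pairs) or 1.5 (promoters, at least 200). Named were all tested androgen-induced genes, genes among up to 4 at each end of every other list, and the 10 highest and 10 lowest promoters and loops (at least 50 read pairs; a mitochondrial entry was left out). Lists and members were chosen with earlier results of these data known. Nascent classes are the study's, of which only gene names were used. Some genes and sites that the rule covers are not reported here. The intervals were tested on simulated read pairs that carry counting error only, so the simulation says nothing of the spread between cultures or libraries. Software was scipy 1.17.1, pandas 2.3.3 and numpy 2.4.6 under Python 3.11.15.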

Additional observations from a re-analysis of the deposited data

How the results depend on the processing

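No paired analysis was possible because the tables used here give a single contact for a loop at a given time, and none by replicate number. With 1 library a side the spread between cultures is unknown, the median loop holds 3 or 4 read pairs, and the intervals cover counting error only. Every H3K4me3 log2 change depends on the scaling of the libraries, while differences between changes do not.

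Scaling to equal totals lowered every H3K4me3 log2 change by 0.13 and every H3K27ac one by 0.32. All loops went to 0 in either mark, loops between promoters to -0.046, promoter to other loops to 0.0073 and loops without a promoter to 0.065. The length classes from 5 to 10 kb up to 500 kb and over went to 0.11, -0.094, -0.13, -0.049, 0.0036, 0.045 and 0.049 in that order. Androgen-induced promoters were at 0.53. Promoters called were 57 higher and 52 lower, and loops called lower 1666.

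In loops of at least 20 kb all loops changed by 0.10 (H3K27ac 0.083), the 3 anchor classes by 0.054, 0.11 and 0.17, and androgen-induced promoters by 0.55. KLK3, KLK2 and TMPRSS2 were at 1.35, 0.78 and 1.23. In loops absent from the H3K27ac set promoter to other loops changed by 0.13 and androgen-induced promoters by 0.60 (9 of 19 called). Assigning promoters by the 5 kb bin gave 0.14 for loops between promoters and 0.12 for promoter to other loops, which turned their order.

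With contact classes taken from 0 m, the lowest class changed by 0.62 and the others by -0.056, -0.031, 0.0026, 0.061 and 0.15, from low to high. A class chosen on the 0 m library shares its counting error with the change.

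A fold of 1.5 called 9432 loops higher and 4437 lower, and at least 50 read pairs 333 and 49. A fold of 2 called 7 promoters higher and 0 lower, and at least 20 read pairs 789 and 172 of 13201.

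The alternatives chosen after seeing the data were these. Without KLK3, KLK2 and TMPRSS2 androgen-induced promoters changed by 0.54. At 45 to 50% anchor GC the 3 anchor classes changed by 0.19, 0.16 and 0.18, and the length classes by 0.29, 0.076, 0.038, 0.11, 0.16, 0.20 and 0.20. The read pair minimums on the loops of the KLK3, TMPRSS2 and KLK2 promoters were also chosen then, and the report gives their counts. With the read pair minimum on 30 m, 4 h and 72 h, 16395 of 113557 loops were called higher and 8528 lower, and 347 of 11009 promoters higher and 33 lower. Of all alternative values 60 moved beyond the counting interval or 1.5 times the count, 5 changed sign and 22 did neither.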

Other observations

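The study's nascent transcription classes group genes by the time at which their capped nascent RNA peaked. Of 53 tested promoters of genes peaking at 4 h 4 were higher at 16 h by a fold of 1.5 (7.55%), of 114 peaking at 16 h 4 (3.51%), and of 34 peaking at 30 m and 78 peaking at 72 h none. The median log2 changes were 0.13, 0.14, 0.13 and 0.08 for genes peaking at 30 m, 4 h, 16 h and 72 h, beside 0.12 for all tested promoters, of which 2.09% were higher.

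A steroid response element was searched as AGAACA followed after 3 bases of any kind by TGT, on both strands, in the 5 kb bins of the anchors. It lay in 6.60% of the 150544 bins, in at least 1 bin of 10.3% of the loops with at least 20 read pairs, of 12.1% of the 3202 higher loops and of 9.73% of the 1059 lower ones. Within 40 to 45% GC the shares were 12.0% of higher loops and 12.0% of all, within 45 to 50% 13.6% and 10.6%, within 50 to 55% 9.80% and 8.79%, under 40% 17.3% and 14.98%, and from 55% on 4.50% and 7.10%. Of the 226 loops of androgen-induced promoters with at least 20 read pairs 11 (4.87%) held it.

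Chromosomes differed, and so did their anchor GC. Loops of chromosome X changed by 0.27 and those of chromosome 5 by 0.24, with a median anchor GC of 44.47% and 44.31%. Those of chromosomes 16, 17, 19 and 22 changed by 0.02 to 0.04, with a median anchor GC of 50.09% to 51.95%. The KLK3 and KLK2 genes lie on chromosome 19, whose loops as a whole changed by 0.03.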
